A study of Mus musculus with 4 samples.

Results

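Notch receptors, their ligands and their transcriptional targets were described across the cell classes of the mouse aorta-gonad-mesonephros (AGM), the embryonic region in which blood stem cells emerge from the wall of the dorsal aorta. The set holds 10 genes of the 32285 in the feature list: the receptors Notch1, Notch2 and Notch4, the ligands Dll4, Jag1 and Jag2, and the targets Hey1, Hey2, Hes1 and Heyl. They were chosen by name, and each symbol occurs once in the matrices. CD31-positive cells of C57BL/6J embryos at E11.5 had been sorted by TMRM, a dye that accumulates in mitochondria with a high membrane potential, into MMPlow and MMPhigh cells. Each fraction is represented by 2 libraries, and the labels name no genetic change or drug treatment in either fraction; the number of embryos per library is not given in the sources used here. The series asks which transcripts go with the differing stem cell function of cells sorted by mitochondrial activity.

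Notch receptors are single-pass membrane proteins that are cleaved when a ligand of the Delta or Jagged family on a neighbouring cell binds them. The freed intracellular part joins the DNA-binding protein RBPJ and switches on genes of the Hes and Hey families, which encode transcriptional repressors. In the embryo this pathway is known for the arterial fate of endothelium, for the emergence of blood stem cells from the aorta and for keeping neural progenitors from differentiating.

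The promoters of the genes were taken from a set of RefSeq promoters (GRCm38.p6) that held 7 of the 10 genes. Those of Hes1, Hey1 and Heyl were missing from this set, although RefSeq lists these genes. The 7 were therefore the receptors, the ligands and 1 target, Hey2. The RBPJ core TGGGAA was searched on both strands in windows of 300 bases, 250 before and 50 after the start site. It occurred in 1 of the 7 promoters, that of Hey2, against 25.56% of all 32851 promoters. It also occurred in 12 of the 33 wider pathway genes in the promoter set, Hes5 among them. Hey2 and Hes5 are shown because they had the largest folds between arterial and venous cells and between neural progenitors and neurons, so they were picked by their values. Each held the core at 2 places, and 3.79% of all promoters held it at 2 or more. Nrarp, a target with the next largest neural fold, is in the promoter set and had no match. Dll4 and Notch4 are shown beside them as an arterial ligand and an arterial receptor with no match. Capitals mark the core or its reverse complement, and 270 bases are printed per gene, ending 20 bases after the start site.

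Hey2 (GRCm38.p6, chr10:30842764-30843033, minus strand): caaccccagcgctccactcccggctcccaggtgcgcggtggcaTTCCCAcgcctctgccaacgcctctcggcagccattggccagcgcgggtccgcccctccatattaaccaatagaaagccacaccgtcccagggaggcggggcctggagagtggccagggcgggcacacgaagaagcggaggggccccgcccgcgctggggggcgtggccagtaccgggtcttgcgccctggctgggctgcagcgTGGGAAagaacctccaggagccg
Hes5 (GRCm38.p6, chr4:154960673-154960942, plus strand): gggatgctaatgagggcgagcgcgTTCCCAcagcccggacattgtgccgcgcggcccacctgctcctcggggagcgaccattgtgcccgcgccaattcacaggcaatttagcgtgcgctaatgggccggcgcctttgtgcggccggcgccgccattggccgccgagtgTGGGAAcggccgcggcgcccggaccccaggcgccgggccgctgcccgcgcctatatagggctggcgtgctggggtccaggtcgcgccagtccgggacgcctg
Dll4 (GRCm38.p6, chr2:119325534-119325803, plus strand): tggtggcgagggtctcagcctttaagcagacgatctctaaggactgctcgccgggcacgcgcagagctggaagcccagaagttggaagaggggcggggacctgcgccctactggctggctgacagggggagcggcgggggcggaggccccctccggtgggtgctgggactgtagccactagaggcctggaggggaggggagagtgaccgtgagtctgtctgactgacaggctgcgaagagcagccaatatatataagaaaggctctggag
Notch4 (GRCm38.p6, chr17:34564045-34564314, plus strand): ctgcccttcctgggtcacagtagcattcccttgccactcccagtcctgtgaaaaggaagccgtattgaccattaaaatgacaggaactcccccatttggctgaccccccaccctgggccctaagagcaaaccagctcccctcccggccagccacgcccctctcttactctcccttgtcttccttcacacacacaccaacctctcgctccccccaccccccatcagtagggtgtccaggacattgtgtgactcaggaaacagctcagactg

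In Hey2 the matches began 207 bases (reverse) and 3 bases (forward) before the start site, and in Hes5 226 (reverse) and 82 (forward) bases before it. The longer form GTGGGAA was in 6.38% of all promoters and CGTGGGAA in 0.73%, and Hey2 was the member that held each of them. Other motifs that were searched were CACGTG (in none of the 7 members and 7.15% of promoters), CACGCG (in Notch2, Dll4, Jag1 and Jag2, and 9.27%), AACAAT (in none, and 10.72%), AGGAAG (in Notch4, and 35.35%) and GGAA (in 6, and 95.98%). GGAA lies within TGGGAA and AGGAAG. These matches describe letters in a window.

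The 4 libraries held 51800709 to 120168395 UMIs. After filtering, 16698 and 18583 MMPlow cells and 4403 and 3418 MMPhigh cells remained. Their median depths were 3145, 3651, 3685 and 23668.5 UMIs, so MMPhigh 2 stood apart in depth over all cells. Between 7 and 89 barcode sequences past the filter were shared between any pair of libraries. Clustering without the 10 genes gave 28 clusters, of which 7 took no name; 16 classes had at least 20 cells in both MMPlow libraries, and each is called "-like" because its name rests on marker genes. One unnamed cluster held 2114 of the 4403 cells of MMPhigh 1. Within some named classes MMPhigh 1 was deeper than MMPlow as well. Its median was 15905.5 UMIs in macrophage-like cells, against 2804.5 and 3360 in MMPlow, and 8951.5 in neuron-like cells, against 4128 and 5121. In muscle progenitor-like cells it was 4426, against 4733 and 5802 in MMPlow. Endothelial-like cells made up 41.2% of either MMPlow library but 0.318% and 0.380% of the MMPhigh libraries, which is 14 and 13 cells. The cells were sorted on CD31, and Pecam1, which encodes it, was at 275 and 261 CPM (UMIs of a gene scaled to a common library total) over all MMPlow cells and at 24.9 and 22.0 CPM over all MMPhigh cells. In the MMPlow libraries, arterial-like cells numbered 567 and 758, venous-like cells 1077 and 1203, haematopoietic progenitor-like cells 609 and 714, and mesenchymal-like cells 1633 and 1484. Arterial-like cells numbered 1 and 2 in the MMPhigh libraries, so the arterial levels describe MMPlow cells.

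RNA of endothelial genes was found in every class of the MMPlow libraries. A list of 10 markers, among them Cdh5, the endothelial cadherin, Pecam1 and Kdr, summed to 4373 and 4526 CPM in arterial-like cells of the MMPlow libraries. They also summed to 1028 and 599 CPM in mesenchymal-like cells, 555 and 451 CPM in neural progenitor-like cells and 323 and 350 CPM in erythroid-like cells, and no marker was at 0 in any of these. In the MMPhigh libraries the same sum was 26.5 and 31.2 CPM in mesenchymal-like cells and 22.7 and 10.5 CPM in neural progenitor-like cells, and Cdh5 was at 0 in the latter. UMIs of a gene per 100 UMIs of these markers are therefore given below for 8 of the 10 genes, as a description. In blood classes the sum did not follow Cdh5. In megakaryocyte-like cells of MMPhigh it was 355 and 353 CPM, with Cdh5 at 0.677 and 0.754 CPM. In macrophage-like cells of MMPhigh it was 101 and 95.1 CPM, with Cdh5 at 1.61 and 2.14 CPM. The sum is therefore not read as endothelial RNA alone in blood classes.

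**Figure D1:**
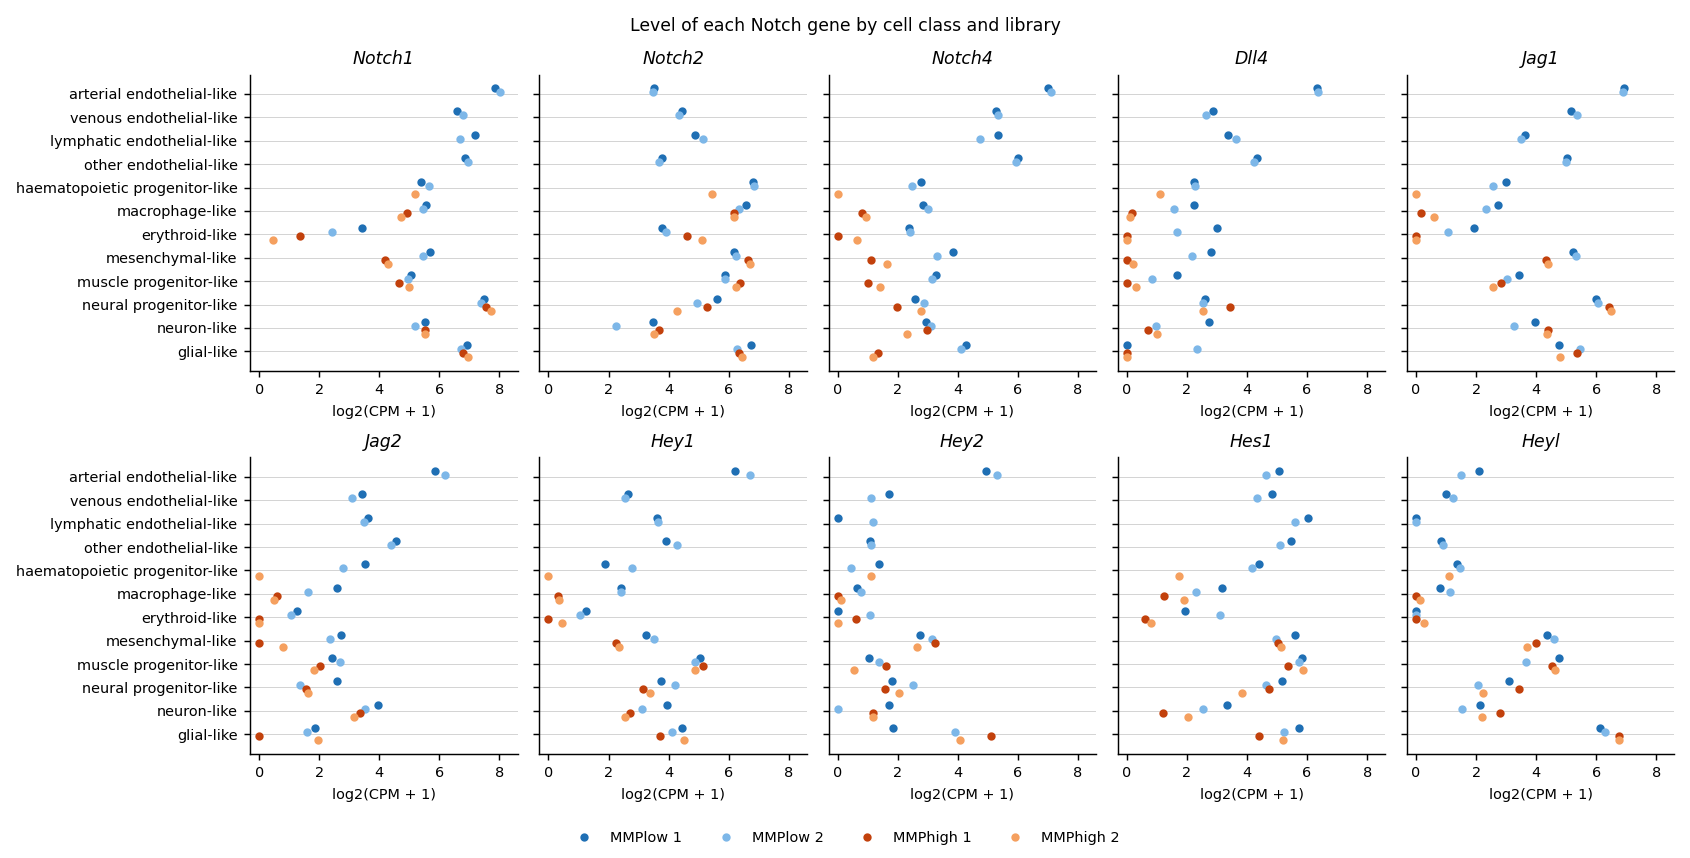
Level of each of the 10 genes (x axis, log2 of CPM + 1) in 12 cell classes (y axis); each point is 1 library, coloured by library, and classes with under 20 cells in a library have no point. Arterial endothelial-like cells hold the highest Dll4 (80.2 and 81.5 CPM), while Notch2 is highest in haematopoietic progenitor-like cells of MMPlow (111 and 115 CPM) and Heyl in glial-like cells.

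Dll4, the ligand best known for arterial endothelium, was at 80.2 and 81.5 CPM in arterial-like cells of MMPlow 1 and MMPlow 2. It stood at 19.3 and 17.7 CPM in the remaining endothelial-like cells, at 9.38 and 11.45 CPM in lymphatic-like cells and at 6.32 and 5.22 CPM in venous-like cells. These 4 endothelial classes did not overlap in that order. One cluster without a name, number 13, led by Stab2, Oit3 and Gata4, held Dll4 at 36.9 and 38.7 CPM. In the named MMPlow classes outside the endothelium it was at 8.96 CPM or less, and in MMPhigh it was at 0.124 and 0.0825 CPM in macrophage-like cells, 0 and 0.143 CPM in mesenchymal-like cells and at 9.86 and 4.74 CPM in neural progenitor-like cells. After each cell had been thinned to 2000 UMIs, 13.4% and 13.7% of arterial-like cells had a Dll4 UMI, against 1.33% and 1.22% of erythroid-like cells, which should lack it. Without thinning these shares were 21.5% and 23.7% against 5.33% and 2.44%, at median depths of 2804 and 3238.5 UMIs in arterial-like and 9577 and 10930 in erythroid-like cells.

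Notch4, a receptor known mainly from endothelium, was at 129 and 137 CPM in arterial-like cells. The remaining endothelial-like cells were at 63.6 and 61.0 CPM and the venous-like cells at 37.4 and 39.6 CPM, and these 3 groups did not overlap. Per 100 UMIs of the 10 endothelial markers, Notch4 had 1.47 and 1.39 UMIs in endothelial-like cells of MMPlow. It had 1.31 and 1.48 in mesenchymal-like, 1.30 and 1.25 in erythroid-like, 0.614 and 0.537 in haematopoietic progenitor-like and 3.43 and 2.68 in glial-like cells. By the same measure Dll4 had 0.494 and 0.461 in endothelial-like, 0.574 and 0.579 in mesenchymal-like, 2.17 and 0.623 in erythroid-like, 0.905 and 1.05 in neural progenitor-like and 0.360 and 0.157 in muscle progenitor-like cells. These ratios outside the endothelium lay on either side of the endothelial ones, but several rest on few UMIs. Over both MMPlow libraries Dll4 had 7 UMIs in erythroid-like, 5 in neural progenitor-like and 3 in muscle progenitor-like cells. Notch4 had 7 in erythroid-like cells. Ratios on so few UMIs are not read as departures from the endothelial ones. Notch2 had 0.327 and 0.293 in endothelial-like cells and 6.90 and 12.5 in mesenchymal-like cells. In MMPhigh, Notch4 was at 6.81 and 3.96 CPM in neuron-like cells, where the markers summed to 10.4 and 13.6 CPM.

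Notch1, the receptor required for blood stem cell emergence in the mouse, was at 230 and 258 CPM in arterial-like cells. It was next highest in neural progenitor-like cells, at 178 and 168 CPM in MMPlow and 185 and 211 CPM in MMPhigh. Venous-like cells were at 94.5 and 110 CPM and haematopoietic progenitor-like cells at 40.8 and 49.0 CPM. Epithelial or mesonephric-like, lymphatic-like, other endothelial-like and glial-like cells lay between 102 and 144 CPM in MMPlow and overlapped one another. Per 100 marker UMIs Notch1 had 2.79 and 2.92 in endothelial-like cells of MMPlow, among which arterial-like cells had 5.27 and 5.69. Mesenchymal-like cells had 4.88 and 7.20 and neural progenitor-like cells 32.1 and 37.2. Of all Notch1 UMIs, 59.9% and 63.7% came from endothelial-like cells in MMPlow, and 2.12% and 1.35% in MMPhigh. Of the 7688 such UMIs in MMPlow, 5450 lay in the other endothelial-like cells, whose sub-clusters took no name.

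Notch2, a receptor with roles in many blood lineages, was low in endothelium. It was at 111 and 115 CPM in haematopoietic progenitor-like cells of MMPlow, at 94.5 and 80.7 CPM in macrophage-like cells and at 70.9 and 75.0 CPM in mesenchymal-like cells. Arterial-like cells were at 10.4 and 10.1 CPM. Glial-like cells, at 107 and 76.9 CPM, overlapped macrophage-like cells. In the 26 haematopoietic progenitor-like cells of MMPhigh 2, the only MMPhigh library with at least 20, Notch2 was at 42.5 CPM and Notch1 at 35.6 CPM.

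Among the classes of MMPlow, the Jagged ligands were both highest in arterial-like cells. An endothelial sub-cluster without a name, described below, held more Jag1 than the arterial-like class. Jag1 was at 122 and 118 CPM in arterial-like cells, at 62.8 and 64.8 CPM in neural progenitor-like cells, and between 34.6 and 40.2 CPM in mesenchymal-like and venous-like cells, which overlapped. Jag2 was at 56.2 and 72.5 CPM in arterial-like cells, at 35.4 and 36.8 CPM in epithelial or mesonephric-like cells and at 9.60 and 7.53 CPM in venous-like cells. Per 100 marker UMIs Jag1 had 0.873 and 0.854 in endothelial-like cells, among which arterial-like cells had 2.78 and 2.61. Mesenchymal-like cells had 3.54 and 6.51 of Jag1 and neural progenitor-like cells 11.3 and 14.4. Jag2 had 0.523 and 0.491 in endothelial-like cells, among which arterial-like cells had 1.29 and 1.60. Mesenchymal-like cells had 0.546 and 0.695 of Jag2 and epithelial or mesonephric-like cells 3.61 and 4.66.

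The targets fell into different patterns. Hey1, a repressor with a role in arterial fate, was at 73.6 and 103 CPM in arterial-like cells and at 5.31 and 4.83 CPM in venous-like cells, with muscle progenitor-like cells next highest in MMPlow at 32.3 and 28.2 CPM. In MMPhigh, germ cell-like cells held Hey1 at 31.6 and 39.0 CPM and muscle progenitor-like cells at 34.3 and 28.1 CPM, which overlapped. Hey2, its close relative, was at 30.005 and 38.95 CPM in arterial-like cells and at 5.62 and 7.91 CPM in mesenchymal-like cells. Per 100 marker UMIs Hey1 had 0.391 and 0.509 in endothelial-like, 1.68 and 2.27 in arterial-like and 5.41 and 5.63 in muscle progenitor-like cells. Hey2 had 0.075 and 0.0936 in endothelial-like, 0.686 and 0.861 in arterial-like and 0.546 and 1.32 in mesenchymal-like cells. Glial-like cells gave 2.61 and 14.2 CPM of Hey2 in MMPlow and 33.7 and 15.8 CPM in MMPhigh. Heyl was at 67.9 and 76.9 CPM in glial-like cells of MMPlow and at 107 CPM in each MMPhigh library. Mesenchymal-like cells (19.4 and 23.1 CPM) and muscle progenitor-like cells (25.9 and 11.8 CPM) followed for Heyl in MMPlow and overlapped. In MMPhigh they were at 14.97 and 12.02 CPM and at 22.2 and 23.9 CPM, without overlap. Endothelial-like cells of MMPlow were at 0.982 and 1.00 CPM. Hes1, a target shared by many tissues, had no class that stood apart in MMPlow, and the 6 highest classes, from epithelial or mesonephric-like (102 and 49.7 CPM) to other endothelial-like (43.6 and 33.4 CPM), each overlapped the next.

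Genes with the most similar pattern over 45 class-by-library sums of 16 classes, out of 10138 genes compared, are given as a description, since the sums share libraries and depth. For Dll4 these were Gja4 (r = 0.91), Gja5 (0.88) and Zfp69 (0.85), where the gap junction genes Gja4 and Gja5 are arterial markers that had been used to name the class. Hey2 was followed by Gja5 (0.82), Prdm16 (0.81) and Smad6 (0.80), and Notch4 by Sox7 (0.96), Ppp1r16b (0.95) and 4930542D17Rik (0.94). Jag1 was followed by Nhs (0.86), Efnb2 (0.85) and Xrn1 (0.85), Jag2 by Ablim1 (0.87), Fzd6 (0.86) and Camk4 (0.82), and Hey1 by Igfbp3 (0.79), Myo10 (0.77) and Pls3 (0.76). Notch1 was followed by Vim (0.87), Plekha1 (0.87) and Rasal2 (0.87), Notch2 by Lpin2 (0.76), Pms1 (0.74) and Tns3 (0.74), Hes1 by Gja1 (0.90), Tcf7l1 (0.90) and Spats2l (0.88), and Heyl by Spon1 (0.90), Lrig3 (0.88) and Postn (0.88). Efnb2 and Postn had likewise been used to name classes, the arterial-like and the mesenchymal-like one. Among the members themselves, Notch4 and Dll4 were most alike (r = 0.86), and Notch2 and Dll4 least (r = -0.40).

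Arterial and venous endothelial-like cells were compared in the 2 MMPlow libraries. Of the 10 genes, 7 were higher in arterial-like cells, 1 was lower and 2 did not pass the test, by edgeR's quasi-likelihood test with Benjamini-Hochberg adjustment. Among all genes tested, 16.8% were called, 9.29% higher and 7.49% lower. The median log2 fold was 1.77 over the 10 genes and -0.01 over all genes. The classes were drawn without the 10 genes, but from genes that vary with them.

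The Hey targets and Dll4 differed most. Hey2 was higher by a log2 fold of 4.41 ± 0.39 (SE; adjusted p = 2.67e-14), Hey1 by 4.18 ± 0.20 (adjusted p = 1.13e-25) and Dll4 by 3.86 ± 0.21 (adjusted p = 1.17e-23). Jag2 followed at 2.996 ± 0.21, Notch4 at 1.83 ± 0.13, Jag1 at 1.71 ± 0.14 and Notch1 at 1.29 ± 0.12, with adjusted p from 4.28e-18 (Jag2) to 4.59e-14 (Notch1). For each of these 7 genes either arterial library lay above either venous library. Hey2 rested on 55 and 108 UMIs in arterial-like cells and on 9 and 6 in venous-like cells. It passed the filter on low values through arterial-like cells, so it gives no support to the count of 7 or to the median. Notch2 was lower in arterial-like cells by 0.91 on the log2 scale (fold -0.91 ± 0.23, adjusted p = 0.00205), and its call was lost at Leiden resolution 0.5 (-0.40, adjusted p = 0.283). Hes1 (0.33 ± 0.19, adjusted p = 0.285) and Heyl (1.02 ± 0.68, adjusted p = 0.368) did not pass; Hes1 passed at Leiden resolution 2 (0.51, adjusted p = 0.0354). Among cells with at least 5000 UMIs (53 and 119 arterial-like cells), arterial levels were 59.6 CPM for Jag1, 37.1 for Jag2, 18.7 for Hey2 and 3.43 for Notch2, against means of 119.8, 64.3, 34.5 and 10.2 CPM in all arterial-like cells. Hey1 and Dll4 were higher among the deeper cells, at 113.7 and 86.9 CPM against 88.2 and 80.9 CPM.

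Of the 37 wider pathway genes tested, 5 were higher in arterial-like cells and 2 lower, close to the 16.8% called among all genes. Those with the largest folds were Dtx4, a ubiquitin ligase of the pathway (2.62 ± 0.34, adjusted p = 6.65e-09), the target Hes5 (2.36 ± 0.72, adjusted p = 0.0133) and Furin, the protease that processes Notch receptors (1.22 ± 0.21, adjusted p = 5.84e-06). Hes5 rested on 4 and 12 UMIs in arterial-like cells and 2 and 4 in venous-like cells. The ligand Dll1 went the other way, at 6.00 and 8.30 CPM in arterial-like and 32.8 and 34.4 CPM in venous-like cells (fold -2.15 ± 0.26, adjusted p = 8.31e-10). Maml3, a coactivator of the Notch complex, was also lower (-0.45 ± 0.09, adjusted p = 0.000200). Pecam1 was higher in arterial-like cells by 0.78 ± 0.14, and of the 10 endothelial markers 4 were higher and 1 lower.

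**Figure D2:**
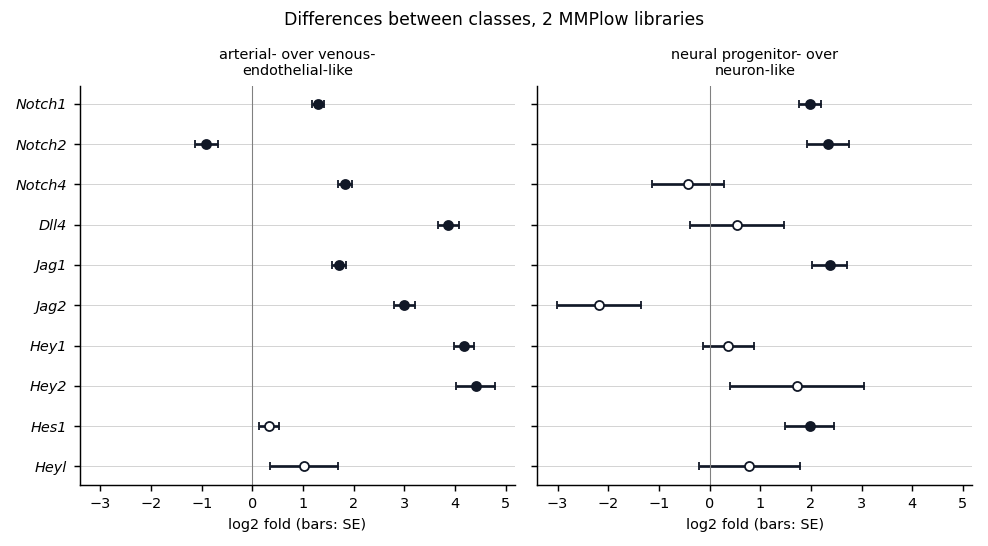
Log2 fold of each of the 10 genes between arterial and venous endothelial-like cells (left) and between neural progenitor-like and neuron-like cells (right) of the 2 MMPlow libraries, with bars for the standard error; filled points passed the adjusted threshold of 0.05. Hey1, Hey2 and Dll4 lie furthest to the right in the arterial comparison, at 4.18, 4.41 and 3.86, and Notch2 is to the left of 0.

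Within the endothelium the genes did not move as a block. The arterial-like class joined sub-cluster 9, led by Gja5, Bmx, Dkk2 and Vegfc, and sub-cluster 1, led by Sntg2, Abtb2 and Unc5b. Dll4 was at 85.4 and 81.4 CPM in sub-cluster 9 and 64.3 and 81.9 CPM in sub-cluster 1, and overlapped between them, as did Notch1 (221 and 266 CPM against 260 and 234 CPM). Jag1 was at 156 and 149 CPM in sub-cluster 9 but at 15.5 and 34.3 CPM in sub-cluster 1. Hey2 was at 39.1 and 52.6 CPM against 2.22 and 2.64 CPM. A sub-cluster that took no name, number 12, led by Dgki and with Apcdd1 among its leading genes, had Jag1 at 143 and 140 CPM and Notch4 at 121 and 142 CPM with Hey2 at 3.32 and 9.20 CPM. Sub-clusters 10 and 11 held Jag1 at 56.1 and 53.8 CPM and at 89.2 and 86.6 CPM, with Dll4 between 8.96 and 13.7 CPM. These sub-clusters were drawn from the same cells and their differences were not tested.

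**Figure D3:**
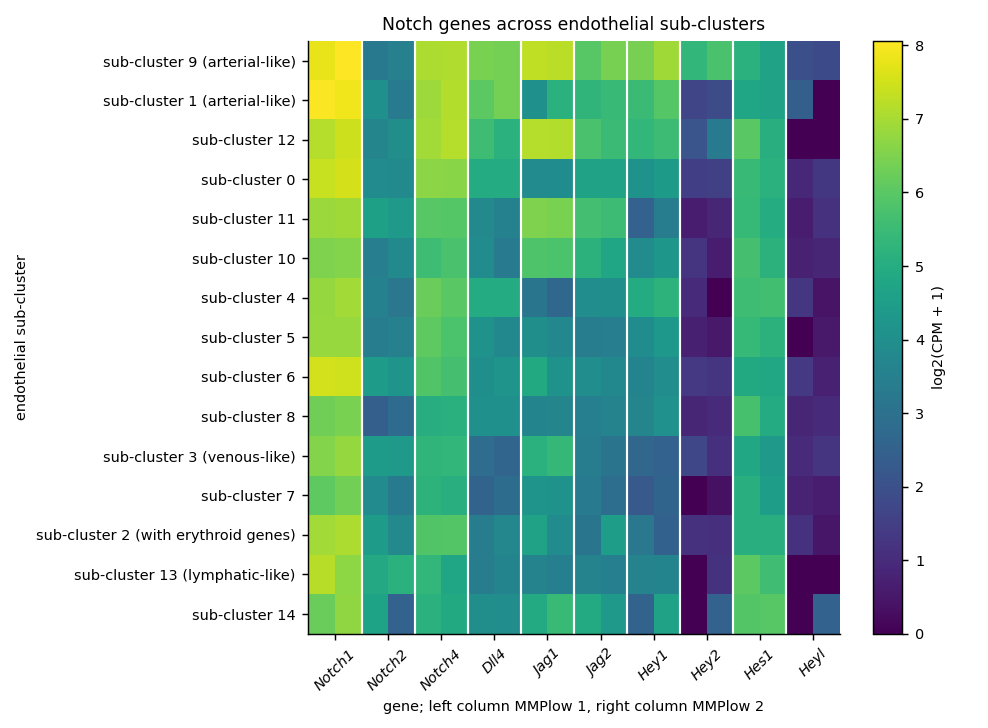
Heat map of log2(CPM + 1) for the 10 genes (pairs of columns, MMPlow 1 on the left and MMPlow 2 on the right of each pair) in the 15 endothelial sub-clusters (rows). Hey2 is bright in sub-cluster 9 (39.1 and 52.6 CPM) and at most 9.20 CPM in the other rows, whereas Notch1 is present in every row and Jag1 is bright in sub-clusters 9, 11 and 12.

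Neural progenitor-like cells were compared with neuron-like cells in the 2 MMPlow libraries, and the receptors Notch1 and Notch2, the ligand Jag1 and the target Hes1 were higher in the progenitors. That is 4 of the 10 genes higher and none lower, where 18% of all genes tested were called and 7.28% were higher. The median log2 fold was 1.25 over the 10 genes and -0.03 over all genes. It fell between the folds of Heyl and Hey2. Over both libraries Heyl had 5 UMIs in progenitors and 5 in neurons, and Hey2 4 and 2, so this median gives no support. With only these 2 classes in the fit, 5 of the members passed the filter on low values. Notch1 was at 178 and 168 CPM in progenitors and 44.9 and 35.0 CPM in neurons (log2 fold 1.99 ± 0.21, adjusted p = 6.01e-11). Jag1 was at 62.8 and 64.8 CPM against 14.6 and 8.52 CPM (2.37 ± 0.34, adjusted p = 1.44e-07). Notch2 was at 47.7 and 30.04 CPM against 10.1 and 3.79 CPM (2.34 ± 0.41, adjusted p = 9.31e-06). The groups did not overlap for these 3 genes in MMPlow. Hes1 (1.98 ± 0.48, adjusted p = 0.00135) lost its call without the library term (adjusted p = 0.0996) and at Leiden resolution 0.5 (0.99, adjusted p = 0.179).

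Jag2 went the other way without passing (-2.19 ± 0.83, adjusted p = 0.0562), at 5.02 and 1.58 CPM in progenitors and 14.6 and 10.4 CPM in neurons. It passed under 3 alternatives, namely with no filter on low genes, with the highest doublet scores left out and with the pathway genes kept in the clustering (adjusted p of 0.0486, 0.0485 and 0.0480). Dll4 (0.53 ± 0.93), Hey1 (0.37 ± 0.50), Hey2 (1.72 ± 1.33), Heyl (0.78 ± 0.99) and Notch4 (-0.43 ± 0.70) did not pass either. In the MMPhigh libraries, which this test did not use, the same classes held Notch1 at 185 and 211 against 44.5 and 44.4 CPM, Jag1 at 83.8 and 89.1 against 20.01 and 19.5 CPM, and Jag2 at 1.97 and 2.11 against 9.15 and 7.99 CPM. Notch2 was at 37.5 and 18.4 against 11.9 and 10.4 CPM and Hes1 at 25.6 and 13.2 against 1.28 and 3.12 CPM there, and no pair of groups overlapped for these 5 genes. In the progenitors Jag2 rested on 3 UMIs over both MMPlow libraries and on 6 over both MMPhigh libraries. The classes were drawn over all 4 libraries together, so the MMPhigh values are not an independent check.

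Of 37 wider pathway genes tested, 7 were higher in neural progenitor-like cells and 2 lower, where 18% of all genes were called. The target Hes5 was at 108 and 120 CPM in progenitors and 1.12 and 4.73 CPM in neurons (log2 fold 5.07 ± 0.48, adjusted p = 5.24e-13), and its promoter is one of those printed above. Nrarp, a target that dampens Notch signalling (2.70 ± 0.46, adjusted p = 5.46e-06), and Lfng, a glycosyltransferase that modifies the receptor (2.57 ± 0.79, adjusted p = 0.0144), followed. Dner, a transmembrane ligand-like protein of neurons (-3.07 ± 0.34, adjusted p = 1.51e-08), and Dlk1, a non-canonical ligand (-2.55 ± 0.28, adjusted p = 1.07e-10), were lower.

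MMPhigh was compared with MMPlow over all retained cells. Of the 10 genes, 2 were higher in MMPhigh and 7 lower, and Hey2 did not pass (-0.58 ± 0.24, adjusted p = 0.0685). Hey2 passed under 5 alternatives: with no filter on low genes (adjusted p = 0.0207), with the replicate block (0.0422), without MMPhigh 1 (-0.86, 0.0090), without the highest doublet scores (0.0435) and with a looser filter on cells (0.0247). Among all genes tested 53.7% were called, 27.2% higher and 26.5% lower, so a call is common here. The median log2 fold was -1.27 over the 10 genes and 0.01 over all genes. Dll4 fell from 12.5 and 11.3 CPM to 0.899 and 0.680 CPM (log2 fold -3.93 ± 0.19, adjusted p = 9.33e-07). Notch4 fell from 34.8 and 31.9 CPM to 2.94 and 2.11 CPM (-3.74 ± 0.16, adjusted p = 1.01e-06). Jag2 (-2.11 ± 0.13), Notch1 (-1.45 ± 0.08), Hes1 (-1.37 ± 0.15), Hey1 (-1.18 ± 0.14) and Jag1 (-1.13 ± 0.12) were lower as well, with adjusted p of at most 0.000265.

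Notch2 (0.36 ± 0.08, adjusted p = 0.00729) and Heyl (0.76 ± 0.15, adjusted p = 0.00281) were higher in MMPhigh over all cells. The share of endothelial-like cells moved with these results, at 41.2% in each MMPlow library and 0.318% and 0.380% in the MMPhigh libraries. In sums over all cells, fewer cells of a type and less RNA per cell cannot be told apart. A draw of equal cells per class could use 9 classes (macrophage, megakaryocyte, erythroid, mesenchymal, muscle progenitor, neural progenitor, neuron, glial and germ cell-like), since the others fell under 20 cells in a library, and so held no endothelial-like or haematopoietic progenitor-like cells. Over its 1309 cells per library the 10 endothelial markers still summed to 688 and 537 CPM in MMPlow and 82.0 and 94.5 CPM in MMPhigh, and their part was not tested. In this draw 6 of the 10 genes were lower and none was higher: Dll4 (-2.77, adjusted p = 0.0189), Notch4 (-2.06), Jag2 (-1.31), Hes1 (-0.82), Jag1 (-0.67) and Notch1 (-0.41). There Heyl turned to -0.34 (adjusted p = 0.276), Notch2 was at 0.15 (adjusted p = 0.401), Hey1 at -0.76 (adjusted p = 0.0903) and 2370 of 16283 genes were called. Notch2 also lost its call without MMPlow 2 (0.32, adjusted p = 0.0816). In the main fit over all cells, where 53.7% of all genes were called, 19 of the 40 wider pathway genes were higher and 11 lower. Dner (4.04 ± 0.14), Dll3 (2.78 ± 0.16) and Dtx1 (2.16 ± 0.24) were at the upper end and Nrarp (-1.57 ± 0.16), Mfng (-1.22 ± 0.09) and Numb (-1.04 ± 0.09) at the lower. In the draw of equal cells 3 of the 40 were higher and 1 lower.

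**Figure D4:**
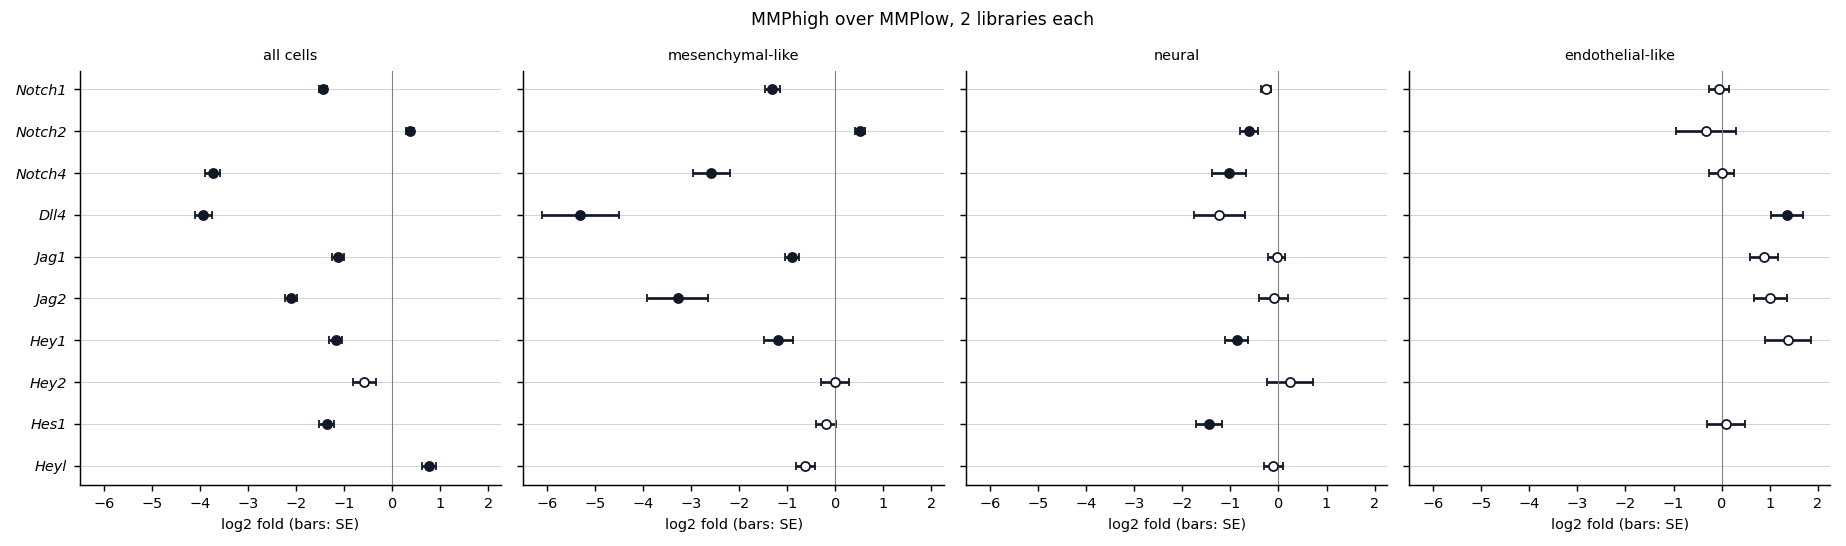
Log2 fold of MMPhigh over MMPlow for each of the 10 genes over all cells and within mesenchymal-like, neural and endothelial-like cells, with bars for the standard error; filled points passed the adjusted threshold of 0.05, and Hey2 and Heyl are left out of the endothelial panel because both MMPhigh libraries were at 0. The mesenchymal-like points of Dll4 and Jag2 rest on 0 and 1 and on 0 and 5 UMIs in MMPhigh. Dll4 and Notch4 lie near -4 over all cells, whereas Notch2 is above 0 in mesenchymal-like cells (0.52) and below 0 in neural cells (-0.62).

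Within mesenchymal-like cells, 1 gene was called higher in MMPhigh and 6 lower, with 17.8% of all genes called, 6.48% higher and 11.3% lower. Of the 6, Dll4 rested on 42 and 25 MMPlow UMIs against 0 and 1 MMPhigh UMIs, Jag2 on 40 and 30 against 0 and 5, and Notch4 on 96 and 64 against 4 and 15, so these 3 passed the filter on low values through MMPlow and give no support to that count. The median log2 fold was -1.05 over the 10 genes, these 3 among them, and -0.01 over all genes. With at least 10 CPM in 2 sums, 5 members were tested, none of these 3 among them. Their median was then -0.66, against -0.0027 over all genes. The median mesenchymal-like cell held 3696 UMIs in MMPlow 1 and 3975.5 in MMPlow 2, against 16320 in MMPhigh 1 and 22216 in MMPhigh 2. The part of this depth gap in the result was not tested. Notch2 was at 70.9 and 75.0 CPM in MMPlow and 99.0 and 103 CPM in MMPhigh, without overlap (log2 fold 0.52 ± 0.10, adjusted p = 0.00668), and lost its call without MMPlow 1 (0.48, adjusted p = 0.0584). Dll4 was at 5.90 and 3.47 CPM in MMPlow and 0 and 0.143 CPM in MMPhigh (adjusted p = 0.00167), and Jag2 at 5.62 and 4.17 against 0 and 0.716 CPM (adjusted p = 0.00592), and their fitted folds are not read because of the near-empty MMPhigh sums. Notch4 was at 13.5 and 8.89 against 1.15 and 2.15 CPM (-2.58 ± 0.39, adjusted p = 0.00165). The others called lower were Notch1 (-1.31 ± 0.15, adjusted p = 0.000388), Hey1 (-1.19 ± 0.29, adjusted p = 0.0199) and Jag1 (-0.91 ± 0.15, adjusted p = 0.00237). Notch1 was at 50.1 and 43.2 CPM in MMPlow and 17.3 and 18.7 CPM in MMPhigh, and Jag1 at 36.4 and 39.0 against 19.0 and 19.7 CPM. Heyl (-0.63 ± 0.20, adjusted p = 0.050), Hes1 (-0.19 ± 0.21) and Hey2 (0.00 ± 0.29) did not pass; Heyl passed under 6 alternatives.

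In the same mesenchymal-like sums 10 of the 10 endothelial markers were lower in MMPhigh, by log2 folds from -9.40 to -3.25, and Pecam1 by -5.66 ± 0.42. The sum of the markers was 1028 and 599 CPM in MMPlow and 26.5 and 31.2 CPM in MMPhigh, and the part of this RNA in the lower calls was not tested. Hey1 lost its call with DESeq2 (adjusted p = 0.124), at Leiden resolution 2 (-0.66, adjusted p = 0.192), and without MMPlow 2 (adjusted p = 0.123), MMPhigh 1 (0.0533) or MMPhigh 2 (0.102). The count over all genes was 1138 without MMPlow 1 and 1179 without MMPhigh 2, against 2574. Of 35 wider pathway genes 5 were higher, led by Dlk1 (0.81 ± 0.14), Maml3 (0.60 ± 0.12) and Hes6 (0.58 ± 0.15), and 3 lower, namely Mfng (-5.14 ± 0.47), Nrarp (-2.02 ± 0.40) and Adam10 (-0.34 ± 0.11).

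**Figure D5:**
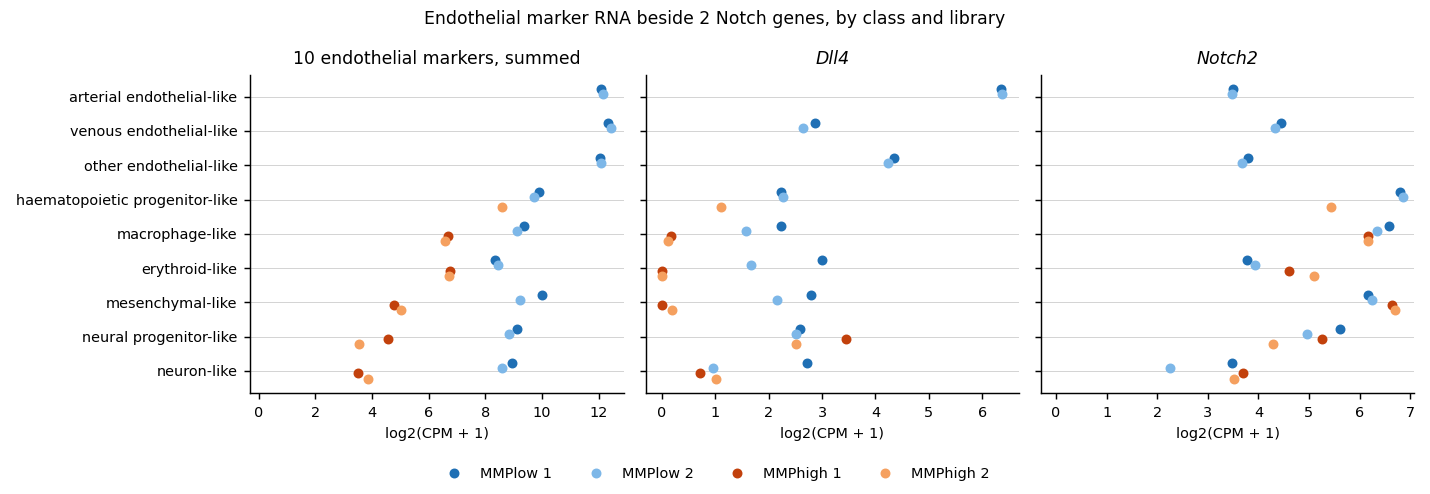
Summed level of 10 endothelial markers (left), Dll4 (middle) and Notch2 (right) in 9 classes, as log2(CPM + 1) per library. Outside the endothelium the MMPlow points of the markers and of Dll4 lie to the right of the MMPhigh points in mesenchymal-like cells (markers 1028 and 599 against 26.5 and 31.2 CPM), whereas those of Notch2 lie to the left.

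Within neural cells (449, 525, 526 and 905 cells), 4 genes were lower in MMPhigh and none higher, with 28.8% of all genes called and 15.8% lower. The median log2 fold was -0.44 over the 10 genes and -0.01 over all genes. The median neural cell held 3486 UMIs in MMPlow 1 and 4283 in MMPlow 2, against 9101 in MMPhigh 1 and 19493 in MMPhigh 2. Hes1 was at 24.3 and 15.1 CPM in MMPlow and 6.13 and 7.31 CPM in MMPhigh (-1.45 ± 0.27, adjusted p = 0.00251). Notch2 was at 37.4 and 25.5 CPM against 20.1 and 19.1 CPM (-0.62 ± 0.19, adjusted p = 0.0301), Hey1 at 14.5 and 13.3 against 7.05 and 7.47 CPM (-0.87 ± 0.24, adjusted p = 0.0188), and Notch4 at 9.81 and 9.71 against 6.26 and 3.52 CPM (-1.03 ± 0.35, adjusted p = 0.0459). Notch1 (-0.26 ± 0.11), Dll4 (-1.23 ± 0.53), Jag1 (-0.04 ± 0.17), Jag2 (-0.10 ± 0.30), Hey2 (0.24 ± 0.48) and Heyl (-0.10 ± 0.20) did not pass. The calls were not stable: none of the 10 passed without MMPlow 1 (1836 of all genes called; at an unadjusted p under 0.05, 2 members and 4484 of 15294 genes with edgeR), 2 passed without MMPlow 2 (2158 genes) and among cells of at least 5000 UMIs (3193 of 13455 genes), and 1 with DESeq2 (2452 of 13919) or at Leiden resolution 2 (1711 of 13360). In the neural sums 10 of the 10 endothelial markers were lower as well (-7.59 to -3.31), their sum being 520 and 468 CPM in MMPlow and 28.7 and 16.3 CPM in MMPhigh. Their part in the result was not tested.

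The make-up of the neural class also moved with the fraction. Neuron-like cells were 164 and 187 in MMPlow and 308 and 531 in MMPhigh, and neural progenitor-like cells 101, 132, 79 and 93. Glial-like cells were 63 and 63 in MMPlow and 27 and 49 in MMPhigh. In MMPlow they held 79 of the 151 neural Notch2 UMIs and 38 of the 94 neural Hes1 UMIs. The part of this make-up in the neural calls was not tested. Within neural progenitor-like cells none of the 5 genes tested passed, and within neuron-like cells none of 8, with 5.56% and 9.05% of all genes called. At an unadjusted p under 0.05 these counts were 0 and 3 with edgeR, beside 1794 of 9410 and 3219 of 12334 genes, and DESeq2 called none in either class. In the progenitors Hes1 was at -0.62 ± 0.43, Notch2 at -0.49 ± 0.41, Hey1 at -0.78 ± 0.52, Jag1 at 0.45 ± 0.22 and Notch1 at 0.21 ± 0.17. With the pathway genes kept in the clustering Jag1 turned to -1.18 there, without passing. In the neurons Hes1 was at -1.39 ± 0.62, Hey1 at -1.07 ± 0.43, Jag2 at -0.52 ± 0.34, Notch4 at -0.48 ± 0.49, Notch1 at 0.19 ± 0.18, Notch2 at 0.74 ± 0.43, Heyl at 0.81 ± 0.66 and Jag1 at 0.82 ± 0.30. Jag1 passed in the neurons among cells of at least 5000 UMIs (1.40, adjusted p = 0.0479), where 789 of 11991 genes were called. Of the wider pathway, Dner (1.53 ± 0.38) and Hes6 (0.86 ± 0.18) were higher in the progenitors of MMPhigh, and 4 genes were higher in the neurons, led by Dner (0.97 ± 0.15), Maml3 (0.65 ± 0.13) and Spen (0.61 ± 0.14). Of 38 wider pathway genes in the neural class, where 1820 of all 13919 genes were higher and 2193 lower, 8 were higher, led by Dner (1.29 ± 0.12), Maml3 (0.76 ± 0.11) and Dlk1 (0.69 ± 0.13), and 2 lower, Nrarp (-0.92 ± 0.24) and Notch3 (-0.62 ± 0.15).

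Within endothelial-like cells the MMPhigh sums rested on 14 and 13 cells, of which 1 and 2 were arterial-like, 1 and 3 venous-like, 2 and 2 lymphatic-like and 10 and 6 other endothelial-like. In MMPlow these were 567 and 758, 1077 and 1203, 132 and 161, and 5097 and 5537 of 6873 and 7659 cells. The median endothelial-like cell held 10308.5 and 20868 UMIs in the MMPhigh libraries and 3146 and 3619 in the MMPlow libraries, and the part of make-up and depth in what follows was not tested. Dll4, on 8 and 22 UMIs, was at 38.5 and 66.6 CPM in MMPhigh and 21.4 and 20.9 CPM in MMPlow (log2 fold 1.36 ± 0.33, adjusted p = 0.0273), and was the 1 gene of 10 called; 1.81% of all genes were called and 0.704% were higher. It lost its call without MMPlow 1, without MMPlow 2, without MMPhigh 2, with the replicate block and with a stricter filter on low genes (adjusted p of 0.607, 0.527, 0.641, 0.119 and 0.0752). Its fold was 1.40, 1.35, 0.87, 1.31 and 1.45 in these settings. Without MMPlow 1 and without MMPlow 2, 6733 and 6767 genes were tested, against 14769 in the main fit. Without MMPhigh 1 the folds of Jag1 and Hey1 were 1.203 and 1.87, whereas without MMPhigh 2 that of Hey1 was -0.0592. DESeq2 called Jag1 and Jag2 (adjusted p of 0.00366 and 0.00968) beside Dll4, with 667 of 14769 genes called. Notch1 (-0.06 ± 0.21), Notch4 (0.00 ± 0.26), Notch2 (-0.32 ± 0.62), Jag1 (0.88 ± 0.29), Jag2 (1.02 ± 0.34), Hey1 (1.38 ± 0.48) and Hes1 (0.10 ± 0.40) did not pass. Hey2 and Heyl had 0 UMIs in either MMPhigh library, which allows up to 14.4 and 9.08 CPM by the floor of 3 counts per library (counting error only), above their MMPlow levels of 3.25 and 4.24 CPM and 0.982 and 1.00 CPM.

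Haematopoietic progenitor-like cells were too few in MMPhigh (4 and 26) for the same test. Other clusterings drew a wider class, of 1748 and 1718 MMPlow and 59 and 110 MMPhigh cells at Leiden resolution 2, and of 1742, 1699, 65 and 132 cells with the pathway genes kept in. In these, 25% and 32.1% of all genes were called and 14.1% and 17.6% were lower. Notch2 was called lower at -0.55 ± 0.18 (adjusted p = 0.0302) and -0.62 ± 0.18 (adjusted p = 0.00987), on 61 and 179 and on 65 and 216 UMIs in MMPhigh. Notch1 was called lower as well, on 2 and 46 and on 2 and 29 UMIs. Notch4, Dll4, Jag1, Jag2, Hey1 and Hes1 had at most 4 UMIs in any MMPhigh library and passed the filter on low values through MMPlow, so their calls are not read, and Hey2 and Heyl did not pass it. In the narrower class without MMPhigh 1, the MMPhigh side is 1 library of 26 cells, assumed to vary as the MMPlow libraries do. There Notch2 was at -1.11 ± 0.26 (adjusted p = 0.000204; 28.6% of all genes called, 12.9% lower) and Notch1 at -0.05 ± 0.30, and the other members had at most 2 UMIs in that library. The 10 endothelial markers summed to 950 and 842 CPM in the MMPlow sums of this class and 387 CPM in MMPhigh 2. Among them Cdh5 was at 73.2 and 72.3 CPM in MMPlow and 13.8 CPM in MMPhigh 2. At Leiden resolution 2 the 10 markers summed to 793 and 633 CPM in MMPlow and 230 and 238 CPM in MMPhigh, and their part was not tested.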

How the data were processed

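Single-cell RNA libraries of sorted AGM cells were analysed from their gene-by-barcode matrices, 2 for MMPlow and 2 for MMPhigh. The deposited values are raw counts: each is the number of distinct molecules (UMIs, unique molecular identifiers) seen for a gene in a barcode. The matrices were made with Cell Ranger 7.0.1 per the file headers, whereas the submitters' processing notes name Cell Ranger 2.1.1 and the build mm10. The 10 genes and all gene and marker lists were chosen with earlier results of these data known.

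Cells had at least 2000 UMIs, 1000 genes and under 25% of UMIs from 13 mitochondrial genes. Scrublet (scanpy 1.11.5) called 2, 996, 0 and 68 doublets in MMPlow 1, MMPlow 2, MMPhigh 1 and MMPhigh 2, and is taken not to have worked in MMPlow 1 and MMPhigh 1, so the highest 6% of doublet scores were removed as an alternative. Clustering (2000 variable genes, 30 principal components, 15 neighbours, Leiden resolution 1, 28 clusters) left out the 10 genes, the 40 wider pathway genes and the mitochondrial, OXPHOS and ribosomal genes. A cluster was named from marker lists where its mean log2 fold over other cells was at least 0.5, the next list was at least 0.25 lower and at least 3 markers stood out. These thresholds, the sub-clustering of neural clusters, and the comparisons within neural progenitor-like and neuron-like cells and between mesenchymal-like and neural cells were set after the data had been seen.

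UMIs were summed per class and library (at least 20 cells in each library, 10 for endothelial-like cells) and tested with edgeR 4.0.16 in R 4.3.3 (TMM, filterByExpr, robust quasi-likelihood test, two-sided, Benjamini-Hochberg adjustment over all tested genes, threshold 0.05). Class differences were fitted over all classes of the 2 MMPlow libraries with the library as a term. CPM are summed UMIs scaled to a common total. Shares of cells with a UMI were taken after thinning each cell to 2000 UMIs. On simulated counts for all cells (20517 genes), 98.5% of the changes of log2 size 2 were called, against 68.7% for size 1 and 19.4% for size 0.5. For size 0.5 the share was 10.4% in mesenchymal-like and 13.4% in neural sums, and the smaller sums were not simulated. Only 66 or 67 genes were changed per size, with one common spread and no other shift in make-up. The data differ in this, so the shares do not carry over to the results above. DESeq2 1.42.0 and other settings were tried as alternatives.

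In each comparison that the main setting could fit, the tested members of the 10 genes are named and, of the wider pathway, the 3 called genes with the largest log2 fold in each direction. Genes with the most similar pattern were ranked by Pearson's r of log2(CPM + 10) over class-by-library sums of at least 50 cells, among genes with a mean of at least 10 CPM. The labels do not tie libraries numbered alike to a shared litter or day. In the comparisons of MMPhigh with MMPlow within a class or over all cells, p-values measure only the spread between these libraries. In the class differences and the interaction the library is a term. There p-values measure the scatter of class sums left after it. For the class differences this scatter is pooled over all classes of the same 2 libraries, so small p-values there still rest on 2 libraries.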

Additional observations from a re-analysis of the deposited data

Results flagged for a closer look

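The response to the sorted fraction (MMPhigh against MMPlow) was compared between mesenchymal-like and neural cells with an interaction term in edgeR, a test chosen after the data had been seen, in which 2139 of 14628 genes passed. The test called 6 of the 10 genes, and 4 of them are read here. Notch2 differed by a log2 fold of 1.17 ± 0.19 (adjusted p = 0.00122), being 0.52 in mesenchymal-like and -0.62 in neural cells. The neural call of Notch2 was lost without MMPlow 1, with DESeq2, at 5000 UMIs and at Leiden resolutions 0.5 and 2. The make-up of the neural class moved with the fraction, with 164 and 187 neuron-like cells in MMPlow and 308 and 531 in MMPhigh. Glial-like cells were 63 and 63 against 27 and 49, and held 79 of the 151 neural Notch2 UMIs in MMPlow. The part of this make-up was not tested. Notch2 was at 0.74 ± 0.43 within neuron-like cells, without passing. Hes1 differed by 1.32 ± 0.22 (adjusted p = 0.00124), with -0.19 in mesenchymal-like and -1.45 in neural cells. Without MMPlow 1 these folds of Hes1 were 0.18 and -1.08. Glial-like cells held 38 of the 94 neural Hes1 UMIs in MMPlow. Notch1 differed by -0.99 ± 0.16 (adjusted p = 0.000841) and Jag1 by -0.81 ± 0.21 (adjusted p = 0.0169). Notch1 and Jag1 were lower in mesenchymal-like cells of MMPhigh and did not pass in neural cells (-0.26 and -0.04). In neural progenitor-like cells Notch1 averaged 173 CPM in MMPlow and 198 CPM in MMPhigh, and in neuron-like cells 40.0 and 44.4 CPM. Jag1 averaged 63.8 and 86.5 CPM in the progenitors and 11.6 and 19.8 CPM in the neurons. The part of make-up in these neural folds was not tested either. The fitted differences of Dll4 (-4.01) and Jag2 (-3.13) are listed and not read, because their mesenchymal-like MMPhigh sums held 0 and 1 UMIs (Dll4) and 0 and 5 UMIs (Jag2). The endothelial markers fell in both classes, with a median log2 fold of -5.79 in mesenchymal-like and -4.74 in neural cells, and their part in these differences was not tested.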

How the results depend on the processing

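Over all cells, the median log2 fold of the 10 genes ran from -1.33 to -1.23 when 1 library was left out. With at least 10 CPM in 2 sums, 8 of 8 members and 5988 of 10468 genes passed. With equal cells of each class 6 of 10 members and 2370 of 16283 genes passed, and Hey2 turned to 0.0153 and Heyl to -0.34. Within mesenchymal-like cells 6 to 7 members and 1138 to 2333 genes passed without 1 library, 1436 genes with DESeq2, and 4 members and 1652 genes with at least 10 CPM. Hey2 there became 0.0378 with DESeq2, 0.0034 with RLE size factors, 0.0133 without a filter, 0.22 at Leiden resolution 0.5 and 0.0833 with the pathway genes clustered; without 1 library it ran from -0.29 to 0.37 and Hes1 from -0.48 to 0.18.

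Within neural cells 0 to 4 members and 1836 to 4237 genes passed without 1 library; 1 member and 2452 genes passed with DESeq2, 2 members and 3193 genes at 5000 UMIs, and 1 member and 1711 genes at Leiden resolution 2. Jag2 became 0.0022 without a filter, 0.0671 at 5000 UMIs and 0.0705 at Leiden resolution 0.5. Jag1 became 0.0566 without a filter, 0.41 at 5000 UMIs, 0.0241 without high doublet scores, 0.0088 at Leiden resolution 0.5 and 0.0578 at 2, where Hey2 became -0.22 and Notch1 0.0176. Without 1 library Jag2 ran from -0.38 to 0.23, Jag1 from -0.15 to 0.12 and Hey2 from -0.13 to 0.96.

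Within endothelial-like cells 0 to 3 members and 49 to 683 genes passed without 1 library; 3 members and 667 genes passed with DESeq2, 2 and 516 without a filter, and 0 and 81 with at least 10 CPM. Notch4 became -0.0207 without a filter and -0.0203 with the replicate block. Notch1 became 0.0190 with DESeq2, 0.0187 with RLE size factors, 0.0158 with shared barcodes left out and 0.0319 with at least 10 CPM. Without 1 library Notch4 ran from -0.26 to 0.15, Hes1 from -0.30 to 0.34, Notch1 from -0.13 to 0.0463, Notch2 from -1.22 to 0.49 and Hey1 from -0.0592 to 1.87. Progenitor-like cells, not fitted in the main setting, gave 3380 of 11817 genes without MMPhigh 1, 3175 of 12697 at Leiden resolution 2, and 4129 of 12875 with the pathway genes clustered.

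Within neural progenitor-like cells 445 to 1199 genes passed without 1 library, 254 with DESeq2, 943 without a filter and 325 with the pathway genes clustered, where Jag1 became -1.18; without 1 library Notch2 ran from -0.98 to 0.0127. Within neuron-like cells 322 to 1003 genes passed without 1 library, 2213 without a filter, 571 at Leiden resolution 0.5 and 623 at 2; at 5000 UMIs 1 member and 789 of 11991 genes passed and Notch4 became 0.18. Between arterial-like and venous-like cells 1040 of 12278 genes passed at 5000 UMIs and 3744 of 14698 at Leiden resolution 0.5. Between neural progenitor-like and neuron-like cells Hey1 became -0.10 at Leiden resolution 0.5; in single libraries Hey1 ran from -0.20 to 1.10 and Dll4 from -0.13 to 1.56. The cause of these shifts was not tested.

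With the replicate block, 10 members and 11092 genes passed over all cells, 8 and 2745 in mesenchymal-like, 4 and 4342 in neural, 0 and 231 in endothelial-like, 0 and 677 in neural progenitor-like and 0 and 1597 in neuron-like cells. The deviations of the libraries numbered 1 correlated at r = 0.11 over 20517 genes, and the labels name no shared litter. No value was had for endothelial-like cells at 5000 UMIs or Leiden resolution 0.5, or for neural progenitor-like cells at 5000 UMIs or Leiden resolution 2. For a gene at 0 UMIs in the 14 and 13 endothelial-like cells of MMPhigh, the depth of the sums allows up to 14.4 and 9.08 CPM.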
